A study of Mus musculus with 16 samples.

Results

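Mouse P19 cells that had received both a let-7a mimic and an siRNA against Sfpq (siSfpq) were compared with P19 cells that had received siSfpq without the mimic, so that the effect of let-7a was read inside the Sfpq knockdown. The sample titles placed 8 of the 16 arrays of the series in these groups, 4 with let-7a and siSfpq and 4 with siSfpq. The other 8 arrays, 4 of let-7a-transfected cells and 4 of control cells, gave the same let-7a contrast in cells without the knockdown and shared no array with the first. Cells were transfected for 48 h at 24 nM of siRNA or mimic, and total RNA was labelled with Cy3 and hybridized to a 1-colour Agilent 8x60K mouse array. The labels do not say which control oligonucleotide filled the place of a missing siRNA or mimic, and the study's methods count 3 replicates where the labels number 4.

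The let-7 family of miRNAs guides Argonaute proteins to sites in mRNA 3′UTRs that pair with the seed of the miRNA, which lowers the stability and translation of the mRNA. Mature let-7 is scarce in embryonic stem and embryonal carcinoma cells, where Lin28 proteins block its maturation, and it accumulates as cells differentiate. P19 is an embryonal carcinoma line that can turn into neurons and glia after retinoic acid treatment. Sfpq is a nuclear RNA-binding protein that forms dimers with Nono and Pspc1 in paraspeckles, and the study asked how it acts on miRNA silencing.

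The mature miRNA is shown because its seed, bases 2 to 8, defines the sites searched on the array (RefSeq, 5′ to 3′, seed in capitals).
let-7a-5p: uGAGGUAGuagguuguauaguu

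Genes called lower included 5 whose probe itself carried a let-7a seed match of at least 7 bases, CTACCTC, with or without a following A. Each window below is the part of the probe around the match, in mRNA sense with the match in capitals, and the coordinates are those of the array design on mm9.
Hmga2, chr10:119798740-119798769, minus strand: aatcaaaacacactaCTACCTCttaagtcc
Map7, chr10:19998091-19998120, plus strand: gatgaagggacacttgggcccCTACCTCAg
Nop9, chr14:56374169-56374198, plus strand: gctCTACCTCcaggtgttttgccatcttcc
Rpusd3, chr6:113365335-113365364, minus strand: gacttaataaaagttCTACCTCctggtctg
Cpsf4, chr5:145942717-145942746, plus strand: ccagttggtctgcgcCTACCTCctgccaag
On the log2 scale these probes differed between the conditions by -1.5 in Hmga2, -0.957 in Map7, -0.655 in Nop9, -0.464 in Rpusd3 and -0.386 in Cpsf4. They were picked from the calls and are a description. Probes with a match did not stand lower as a class: the median difference was 0.0119 over the 37 probes with CTACCTCA, -0.00851 over the 81 with CTACCTC alone and -0.0207 over the 25672 with no match. A probe covers a short stretch near the end of a transcript, so most 3′UTR sites lie outside these letters.

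Levels below are log2 signals after quantile normalization, and a difference of 1 is a doubling. Between 33733 and 38464 of 59305 spots per array were well above background and 0 were saturated. Arrays 1 and 2 of a condition differed by no more than about the spread of repeat spots on 1 array (robust SD 0.0902 to 0.12 against 0.0829 to 0.105, and 0.181 to 0.553 for other array pairs), so their mean was taken as 1 sample and n was 3 per condition. Replicate 3 stood apart in both conditions. The SD of the let-7a + siSfpq minus siSfpq difference over all genes was 0.372 in replicate 3, against 0.616 in arrays 1 and 2 and 0.675 in replicate 4. Counts over all genes and over the main gene groups are therefore also given without it, with the matching share of all genes, as are the genes named as not called whose call it changed. All 8 embryonal carcinoma markers, among them Pou5f1, Sox2 and Nanog, were well above background on the 8 arrays. Of 8 macrophage markers, only 4 passed the filter on dim probes and none was called (1 lower with replicate number as a block). Nothing in the labels says that replicates were separate cultures, so p-values measure the spread between these samples, and the small number of arrays limits their precision.

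Sfpq itself was read first, because it checks the knockdown on which the comparison rests. Its log2 level was 12.06, 12.08, 11.98 and 11.98 on the 4 control arrays and 12.03, 12.05, 12 and 11.90 on the let-7a arrays. With siSfpq it was 10.59, 10.52, 11.46 and 10.62, and with let-7a and siSfpq it was 11.31, 11.31, 11.49 and 11.41. All 8 knockdown arrays were below the 8 others, but replicate 3 of siSfpq lay with the let-7a + siSfpq arrays and apart from the other siSfpq arrays.

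**Figure D1:**
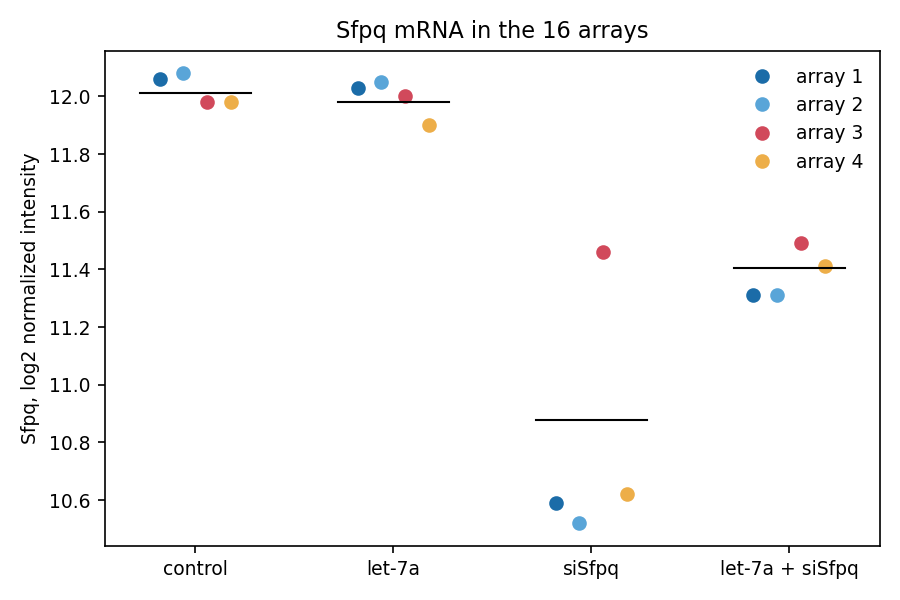
Sfpq mRNA on the 16 arrays, as quantile-normalized log2 signal by condition, with 1 point per array, coloured by replicate number, and a line at the mean over 3 samples. The siSfpq arrays read 10.59, 10.52 and 10.62 apart from replicate 3 at 11.46, which lies level with the let-7a + siSfpq arrays at 11.31 to 11.49.

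The Sfpq level was thus not the same in the cells compared. It differed by 0.53 between let-7a + siSfpq and siSfpq (limma, adjusted p = 0.104, n = 3), by 0.772 without replicate 3 (limma, adjusted p = 0.000181) and by 0.53 with replicate number as a block (limma, adjusted p = 0.0394). An exact permutation test of this value over the 3 samples against 3 gave p = 0.3, two-sided, where 0.1 is the smallest that 3 against 3 allows. The difference was 0.756 in arrays 1 and 2, 0.0303 in replicate 3 and 0.788 in replicate 4. A weaker knockdown and the let-7a mimic therefore go together in arrays 1 and 2 and in replicate 4, and cannot be told apart there. In replicate 3, where Sfpq was level, the effect of let-7a on other genes is given below beside that in the other samples.

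In Sfpq-depleted cells that also received let-7a, 29 of 51 measured neuronal and noradrenergic genes were called higher, while 9 of 16 mitotic genes, 10 of 53 let-7 targets and 4 of 17 primitive streak and mesendoderm genes were called lower. Of 19578 genes tested, limma called 1811 at p below 0.05 after Benjamini-Hochberg adjustment, 9.25% of all genes, 1089 of them higher (5.56%) and 722 lower (3.69%). Large changes were mostly rises: 538 genes rose and 101 fell by at least 1 on the log2 scale. Among the calls, 95 rises were well above background on no siSfpq array and 4 falls on no let-7a + siSfpq array. With only probes well above background on all 8 arrays, 827 genes were called higher and 672 lower. The median over all genes was -0.019. Of the called genes, 1799 had the same sign in all 3 samples and 1784 had no overlap between the conditions, which 24.6% of all genes tested also lacked.

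With replicate number as a block, which the data bear out as a pairing, 6359 genes were called (32.5%), 3346 higher (17.1%) and 3013 lower (15.4%), and these included all of the 1811 in the same direction. Leaving out replicate 3 raised the number of limma calls to 8879 (45.4%), 4696 higher (24%) and 4183 lower (21.4%), and 1808 of the 1811 were among them with their sign kept. Without arrays 1 and 2, or without replicate 4, it called 0 genes, although 1104 were higher and 608 lower at an unadjusted p below 0.05 in the first case and 992 and 459 in the second.

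Among called genes read well above background on all 8 arrays, the largest rise was that of a noradrenergic gene. Dbh, the enzyme that makes noradrenaline from dopamine, was at 7.81, 9.72 and 7.77 in siSfpq cells (arrays 1 and 2, replicate 3 and replicate 4, in this order from here on) and at 12.49, 11.91 and 12.55 with let-7a. The conditions did not overlap, and replicate 3 of siSfpq was the highest siSfpq sample. Dbh rose by 3.88 ± 0.44 (SE, limma, adjusted p = 0.00127), a 14.7-fold change.

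Of the 10 measured members of the noradrenergic list 5 rose and 0 fell, against 5.56% and 3.69% of all genes. The median was 0.84 against -0.019 over all genes. The LIM-homeobox factor Isl1, which acts in motor and sympathetic neurons, rose by 2.69 ± 0.31 (adjusted p = 0.00134) from 4.19, 4.53 and 3.54 to 6.81, 6.58 and 6.93. Ret, the receptor for GDNF family ligands, rose by 2.03 ± 0.36 (adjusted p = 0.0099), and Phox2a, a homeobox factor of noradrenergic neurons, by 0.90 ± 0.19 (adjusted p = 0.0196). Not every member moved with them. Th, the rate-limiting enzyme of catecholamine synthesis, differed by -0.04 and Gata3 by -0.98, and neither passed the test. Gata3 did pass with the replicate block (adjusted p = 0.035) and, at -1.58, without replicate 3 (adjusted p = 3.84e-05).

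The proneural basic helix-loop-helix factors, which commit progenitors to a neuronal fate, and their partners formed a list of 17, of which 15 passed the filter on dim probes. Of these 11 rose and 0 fell, against 5.56% and 3.69% of all genes, with a median of 1.84. The filter admits a gene read above background throughout any 1 condition, and Neurod1, Neurod4 and Myt1 were above background on no siSfpq array, so that this count is a description. Neurod4 was at 1.58, 1.82 and 1.58 in siSfpq cells, where no array read it well above background, and at 5.43, 5.32 and 5.25 with let-7a, where all 4 did. Its rise was at least 12.1-fold (limma, adjusted p = 5.18e-05). Neurod1 rose at least 5.68-fold by the same rule (adjusted p = 0.00295), which sets the mean of the bright condition against the lowest signal read well above background on each dim array, or against the gene's own signal where that is higher, as it was for Neurod1.

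Neurog2 and Neurog3, upstream members of the family, were measured on more of the arrays. Neurog3 was at 6.18, 7.67 and 5.90 in siSfpq cells and 9.13, 8.75 and 9.19 with let-7a, and rose by 2.44 ± 0.36 (adjusted p = 0.00473). Neurog2 rose by 2.78 ± 0.35 (adjusted p = 0.00214), from 4.78, 5.86 and 4.47 to 8.005, 7.594 and 7.850. Among the downstream factors, Nhlh2 rose by 4.11 ± 0.66 (adjusted p = 0.00652), Ebf2 by 3.30 ± 0.42 (adjusted p = 0.00232) and Neurod2 by 3.28 ± 0.40 (adjusted p = 0.0019), but Nhlh2 was well above background on 1 of the 4 siSfpq arrays and Ebf2 and Neurod2 on 2, so these sizes are less firm. Myt1, a zinc finger factor of early neurons, rose at least 3.28-fold (adjusted p = 0.0195).

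Of 26 genes for neuronal cytoskeleton, secretory granules and vesicles, 13 rose and 0 fell, against 5.56% and 3.69% of all genes. Their median was 0.999, and the replicate block called 18 higher, against 17.1% of all genes. The granule protein Scg2 had the tightest values, 9.42, 9.27 and 9.29 in siSfpq cells and 11.48, 11.48 and 11.39 with let-7a. It rose by 2.12 ± 0.12 (adjusted p = 1.87e-05), a 4.36-fold change. The related granins Chgb and Chga rose by 2.20 ± 0.31 (adjusted p = 0.00388) and 1.74 ± 0.27 (adjusted p = 0.00613).

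Srrm4, a splicing regulator of neuronal microexons, rose by 2.42 ± 0.40 (adjusted p = 0.00742). Some cytoskeletal genes of the list rose too, and others did not pass the test. Tubb3, the neuronal beta tubulin, was at 10.06, 10.55 and 10.19 and rose to 11.29, 11.55 and 11.55, by 1.20 ± 0.21 (adjusted p = 0.00968), and the microtubule-binding proteins Map2 and Mapt rose by 1.36 ± 0.19 (adjusted p = 0.00385) and 1.22 ± 0.17 (adjusted p = 0.00345). Nefl differed by -0.04, Gap43 by 1.02, Dcx by 0.98 and Stmn2 by 0.50, and these did not pass the test. The replicate block called Gap43 (adjusted p = 0.000744) and Dcx (adjusted p = 0.00287) higher, and both passed without replicate 3, as did Stmn2 at 0.76 (adjusted p = 5.64e-05). In bulk RNA, more cells that express a gene and more of its RNA per cell cannot be told apart.

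Over the 3 neuronal lists together, 29 of 51 measured genes were called higher and 0 lower, where 5.56% of all genes were called higher, and 42 of the 51 had a positive difference in all 3 samples. As above, Neurod1, Neurod4 and Myt1 are among the 29 and were above background on no siSfpq array, so this count too is a description. The replicate block called 36 higher and 1 lower, where it called 17.1% and 15.4% of all genes, and leaving out replicate 3 gave 40 and 1, where the shares were 24% and 21.4%. No such rise was called among 12 measured neural progenitor genes, the Sox, Pax and related factors of the neural tube (median 0.18), where the replicate block called 4 higher and 1 lower, against 17.1% and 15.4% of all genes. Of 13 Notch pathway genes, 2 rose, against 5.56% of all genes, and with the replicate block 5 rose and 1 fell, against 17.1% and 15.4%. The 2 were the ligand Dll3 by 1.49 (adjusted p = 0.0209) and the proneural-associated repressor Hes6 by 0.53 (adjusted p = 0.0361).

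**Figure D2:**
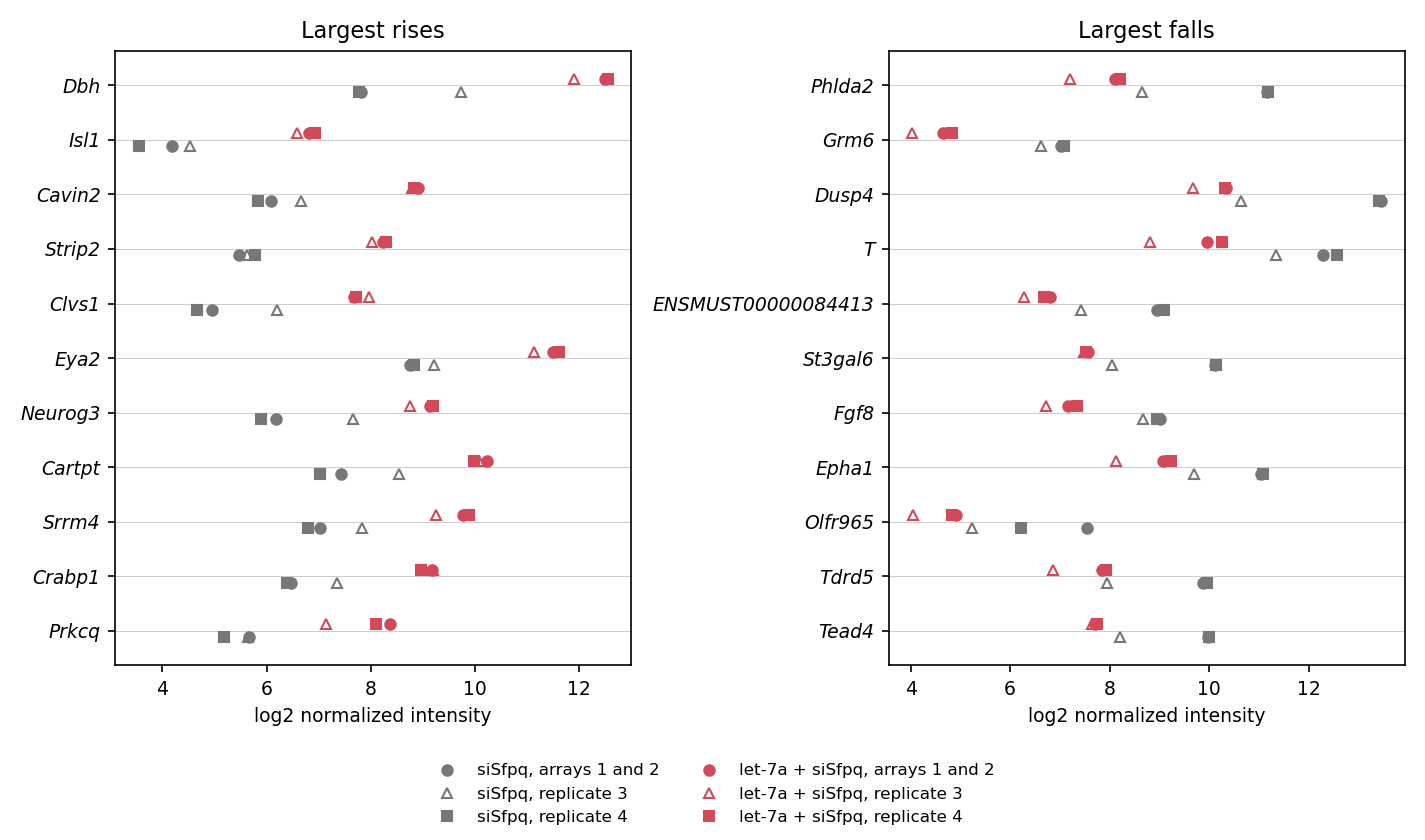
Log2 level of 11 of the 12 genes with the largest rise and 11 of the 12 with the largest fall among called genes read well above background on all 8 arrays and without overlap, with siSfpq in grey, let-7a + siSfpq in red and 1 point per sample (circle, arrays 1 and 2 averaged; triangle, replicate 3; square, replicate 4). Dbh rose most, by 3.88, and Phlda2 fell most, by 2.49.

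The 12 largest rises among genes well above background on all 8 arrays held other genes beside the noradrenergic and proneural ones. Cavin2, a structural protein of caveolae, rose by 2.66 ± 0.21 (adjusted p = 0.000176), Eya2, a transcriptional co-activator and phosphatase, by 2.48 ± 0.29 (adjusted p = 0.00154) and Cartpt, the precursor of the CART neuropeptide, by 2.43 ± 0.29 (adjusted p = 0.00165). Crabp1, a cytoplasmic carrier of retinoic acid, was at 6.47, 7.34 and 6.39 in siSfpq cells and 9.17, 9.19 and 8.96 with let-7a, a rise of 2.37 ± 0.28 (adjusted p = 0.00159). Its homologue Crabp2 rose by 1.44 ± 0.15 (adjusted p = 0.000846).

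These carriers belong to a list of 12 measured genes of retinoic acid handling and response, of which 4 rose and 2 fell, against 5.56% and 3.69% of all genes. With the replicate block 7 rose and 2 fell, against 17.1% and 15.4%. The receptor Rara rose by 0.46 (adjusted p = 0.030) and the retinol transporter Stra6 by 0.96 (adjusted p = 0.0374). Cyp26a1, which degrades retinoic acid, fell by 1.18 (adjusted p = 0.0227). The list therefore held changes of both signs, with a median of 0.42.

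The 12 largest falls included 2 genes of the primitive streak. Brachyury (T), the T-box factor of the primitive streak, was at 12.29, 11.35 and 12.56 in siSfpq cells and at 9.95, 8.82 and 10.26 with let-7a, with no overlap. It fell by 2.39 ± 0.36 (adjusted p = 0.0053), a 5.25-fold change. Fgf8, a growth factor of the streak, was at 9.02, 8.67 and 8.96 and fell to 7.17, 6.72 and 7.34, by 1.80 ± 0.21 (adjusted p = 0.00163).

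Of 17 measured members of this list 4 fell and 1 rose, with a median of -0.34, where 3.69% and 5.56% of all genes were called. The replicate block called 7 lower and 3 higher, against 15.4% and 17.1%, and without replicate 3 there were 7 lower and 5 higher, against 21.4% and 24%. The organizer gene Gsc fell by 0.998 (adjusted p = 0.0121), and the caudal factor Cdx2 was lower by 2.91 (adjusted p = 0.0374), with 1 of 4 arrays well above background in let-7a + siSfpq cells. Lhx1, a LIM-homeobox gene of the organizer and of interneurons, was the member that rose, by 1.64 (adjusted p = 0.00687). Evx1 differed by -2.06 (adjusted p = 0.0524) and missed the threshold. In the other direction the largest difference of the list was 1.71, in a member that was not called, and 5 of the 17 were above 0.

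Several of the other large falls were smaller in replicate 3 than elsewhere. Phlda2, an imprinted growth regulator, was at 11.17, 8.66 and 11.18 in siSfpq cells and 8.11, 7.20 and 8.22 with let-7a, a fall of 2.49 ± 0.58 (adjusted p = 0.0263). Dusp4, a phosphatase that dampens ERK signalling, was at 13.46, 10.65 and 13.42 and then at 10.34, 9.67 and 10.31, a fall of 2.41 ± 0.57 (adjusted p = 0.0285). In both, replicate 3 of siSfpq lay far below the other siSfpq samples and nearer to the let-7a + siSfpq samples. Grm6, a glutamate receptor, did not show this: it was at 7.03, 6.63 and 7.09 and fell to 4.65, 4.04 and 4.84 (2.41 ± 0.24, adjusted p = 0.000688).

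Let-7 targets were followed through 4 lists. The oncofetal list held known targets, the cell cycle and signalling lists known or conserved predicted ones, and the last list other conserved predicted ones. Of 53 measured, 10 were called lower and 1 higher, against 3.69% and 5.56% of all genes, and the median was -0.24. With the replicate block 20 were called lower and 7 higher, against 15.4% and 17.1% of all genes, and without replicate 3 there were 25 lower and 8 higher, against 21.4% and 24%.

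The oncofetal list, genes active in the embryo and silenced later, held 6 of these falls among 15 genes and 0 rises (median -0.49). All genes gave 3.69% and 5.56%. The replicate block called 9 lower and 1 higher, against 15.4% and 17.1%, and without replicate 3 there were 10 and 1, against 21.4% and 24%. Hmga2, a chromatin architectural protein with many let-7 sites, was at 10.69, 9.60 and 10.58 in siSfpq cells and 8.91, 8.63 and 8.83 with let-7a. It did not overlap and fell by 1.502 ± 0.276 (adjusted p = 0.0118), a 2.83-fold change, with its 2 probes at -1.503 and -1.502. Lin28a, the inhibitor of let-7 maturation and itself a let-7 target, was at 14.56, 14.20 and 14.62 and fell to 13.77, 13.77 and 13.91, by 0.65 ± 0.12 (adjusted p = 0.0103). Its paralogue Lin28b fell by 0.72 ± 0.18 (adjusted p = 0.0327), the RNA-binding protein Igf2bp1 by 0.59 ± 0.15 (adjusted p = 0.0354), the repressor Hic2 by 0.67 ± 0.14 (adjusted p = 0.018) and the ubiquitin ligase Trim71, a classical let-7 target, by 0.49 ± 0.13 (adjusted p = 0.0444).

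The cell cycle list gave 3 falls among 11 genes, against 3.69% of all genes, and 6 with the replicate block, against 15.4%. Cdk6, a G1 kinase, was at 8.70, 8.22 and 8.87 and fell to 7.20, 7.46 and 7.40, by 1.24 ± 0.28 (adjusted p = 0.0231). Its partner Ccnd1 was at 9.27, 7.37 and 8.96 and then at 7.41, 6.34 and 7.08, and fell by 1.59 ± 0.45 (adjusted p = 0.0487), but the conditions overlapped because replicate 3 of siSfpq lay below arrays 1 and 2 of let-7a + siSfpq. Cdc25a, a phosphatase that activates cyclin-dependent kinases, fell by 0.67 (adjusted p = 0.0248).

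Among 15 signalling targets the oncogene Myc fell by 0.73 ± 0.18 (adjusted p = 0.0324) and the growth factor receptor Igf1r rose by 0.97 ± 0.23 (adjusted p = 0.0265). Igf1r was at 11.26, 12.32 and 11.32 in siSfpq cells and 12.49, 12.71 and 12.61 with let-7a, so its direction was opposite to that of the other 10 called targets in all 3 samples. Mycn differed by 0.90 without passing the test, but passed with the replicate block (adjusted p = 0.0321) and, at 1.30, without replicate 3 (adjusted p = 5.63e-05). Of the 15 signalling targets, whose median was 0.22, the block called 6 higher and 2 lower, against 17.1% and 15.4% of all genes. None of the 12 other targets was called (median -0.21), and their 3 falls with the replicate block compare with 15.4% of all genes.

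The study singled out 12 genes with canonical let-7a sites near bound Sfpq, and they are followed here with let-7a inside the knockdown. Sfpq itself differed by 0.756 in arrays 1 and 2, 0.0303 in replicate 3 and 0.788 in replicate 4. The conditions are therefore not at the same Sfpq level, and its part in these values was not tested. Lin28a, Igf2bp1 and Hic2, already given, fell, which is 3 of the 12 against 3.69% of all genes. The other 9 were not called. Among them Nemp1 differed by -0.66, Mier2 by -0.31, Bbx by -0.18, Notch2 by -0.05, Skil by 0.03, Lamp2 by 0.14, Map1b by 0.16 and Ash1l by 0.38, and the signs of Notch2 and Skil turned under another scaling or background correction. With the replicate block Nemp1 was called lower (adjusted p = 0.0435) and Ash1l higher (adjusted p = 0.0423). This gave 4 lower and 1 higher of the 12, against 15.4% and 17.1% of all genes. Without replicate 3 there were 5 lower and 2 higher, against 21.4% and 24%, with Mier2 added to the first and Map1b to the second. The median of the 12 was -0.12 here and -0.24 for let-7a against control. Both genes taken as controls in the study, Atf6b and Dusp1, were not called, at -0.26 and 0.00, and Atf6b passed without replicate 3 (adjusted p = 0.0242).

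Of 16 mitotic genes 9 fell and 0 rose, against 3.69% and 5.56% of all genes, and all 16 differences were below 0, with a median of -0.62. The replicate block called 13 lower, against 15.4%, and leaving out replicate 3 gave 14, against 21.4%. Ccnb1, the mitotic cyclin, fell by 0.84 (adjusted p = 0.0213), Top2a, which untangles chromosomes, by 0.78 (adjusted p = 0.0249), Cdc20, an activator of the anaphase-promoting complex, by 0.72 (adjusted p = 0.0377) and the proliferation marker Mki67 by 0.52. No call was made among 15 S phase genes (median -0.14), and the 2 falls with the replicate block compare with 15.4% of all genes.

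The pluripotency list gave calls at about the share of all genes. Of 21 members 1 fell, against 3.69% of all genes. This was Nanog, which went from 10.36, 10.34 and 10.41 to 9.72, 9.74 and 9.70, a fall of 0.65 ± 0.10 (adjusted p = 0.00652), and its probes disagreed in size, from -0.969 to -0.295. The replicate block called 4 of the 21 lower and 1 higher, against 15.4% and 17.1%, and without replicate 3 there were 9 lower and 4 higher, against 21.4% and 24%. Of the 8 embryonal carcinoma markers, 3 fell, against 3.69% of all genes, and 2 of the 8 differences were above 0. The 3 were Nanog, Lin28a and the DNA methyltransferase Dnmt3b, the last by 0.30 (adjusted p = 0.042). The block called 4 of the 8 lower and 0 higher, against 15.4% and 17.1%. Without replicate 3 there were 4 lower and 2 higher, against 21.4% and 24%. Among 11 epithelial genes the ephrin receptor Epha1 was the 1 call and fell by 1.79 (adjusted p = 0.018), where 3.69% of all genes fell, and the replicate block gave 5 falls, where 15.4% did. Of 10 mesenchymal genes, the repressor Snai1 fell by 1.31 (adjusted p = 0.00743) and the neural cadherin Cdh2 rose by 0.64 (adjusted p = 0.033), and the block called 3 higher and 1 lower, against 17.1% and 15.4% of all genes. Basement membrane and matrix genes gave 3 rises among 11, Col4a5 by 0.98 (adjusted p = 0.00295), Lama1 by 0.81 (adjusted p = 0.0301) and Col1a2 by 0.70 (adjusted p = 0.0377), against 5.56% of all genes, and 5 rises with the block, against 17.1%.

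Genes of the miRNA pathway and of the Sfpq complex were called at a share near the 9.25% of all genes. Of 20 genes of miRNA processing and silencing, Ago4, an Argonaute, was the 1 call and rose by 0.56 (adjusted p = 0.0393), where the replicate block called 6 higher and 4 lower, against 17.1% and 15.4%. Of 8 genes of the Sfpq complex and paraspeckles, Pspc1 was the 1 call and fell by 0.30 (adjusted p = 0.0392), and the block called 1 lower and 1 higher. Of 8 measured interferon genes only Rsad2, an antiviral enzyme, was called, at least 4.64-fold higher (adjusted p = 0.00568). Of 16 p53 targets, 3 rose, led by the antiproliferative gene Btg2 at 1.37 (adjusted p = 0.0128), against 5.56% of all genes. The replicate block called 4 higher and 1 lower, against 17.1% and 15.4%, and leaving out replicate 3 gave 4 and 6, against 24% and 21.4%.

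**Figure D3:**
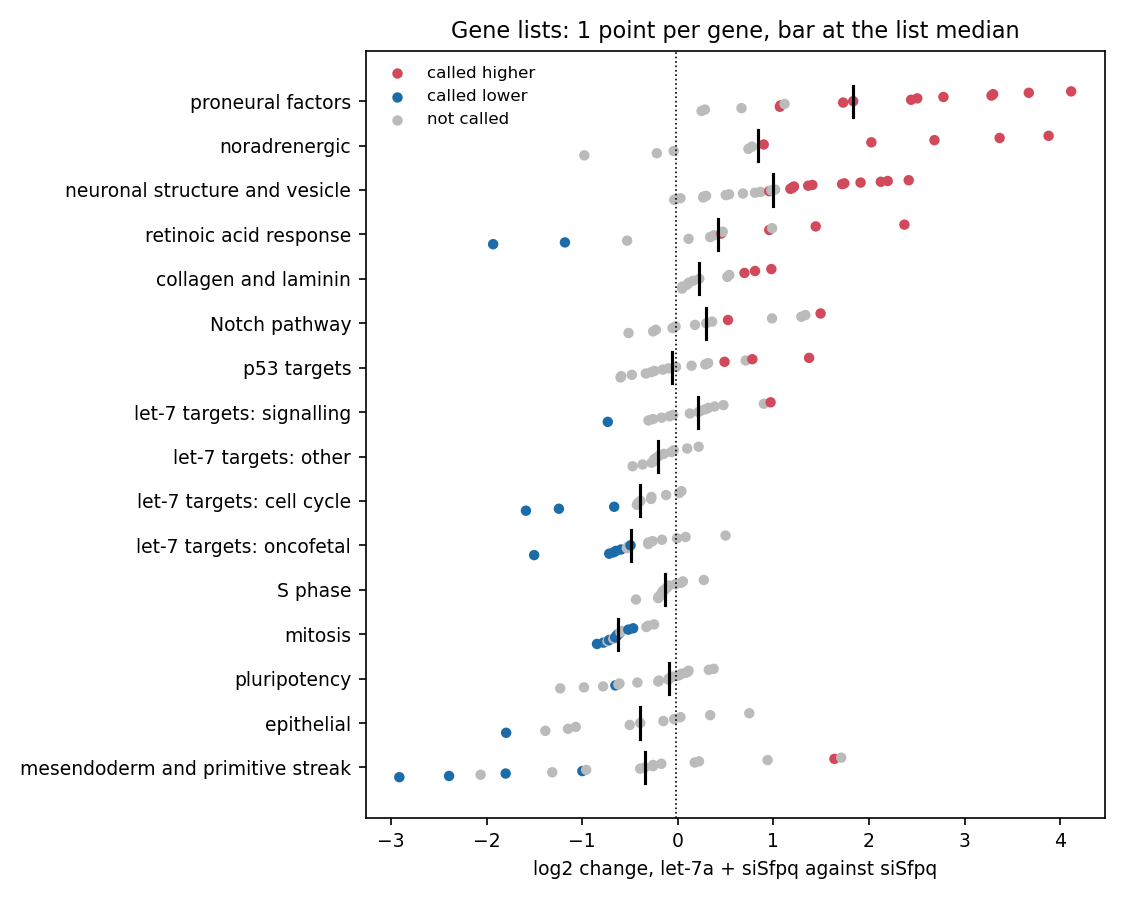
Log2 difference of each measured gene of the gene lists, let-7a + siSfpq minus siSfpq, with genes called higher in red, called lower in blue and not called in grey, and a bar at the median of each list. The 3 neuronal lists have medians of 0.84 to 1.84, and the mitosis list (-0.62) and the oncofetal let-7 targets (-0.49) lie lowest.

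The same let-7a contrast in cells without the knockdown called 1246 genes (6.36%), 886 higher (4.53%) and 360 lower (1.84%). Of these, 672 were called in both contrasts, which is 37.1% of the calls made with the knockdown and 53.9% of those made without it. Among them 512 were higher in both, 158 lower in both and 2 of opposite sign. Across all genes the differences correlated at Pearson's r = 0.659 and Spearman's rho = 0.575, given as a description since genes are not independent replicates.

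**Figure D4:**
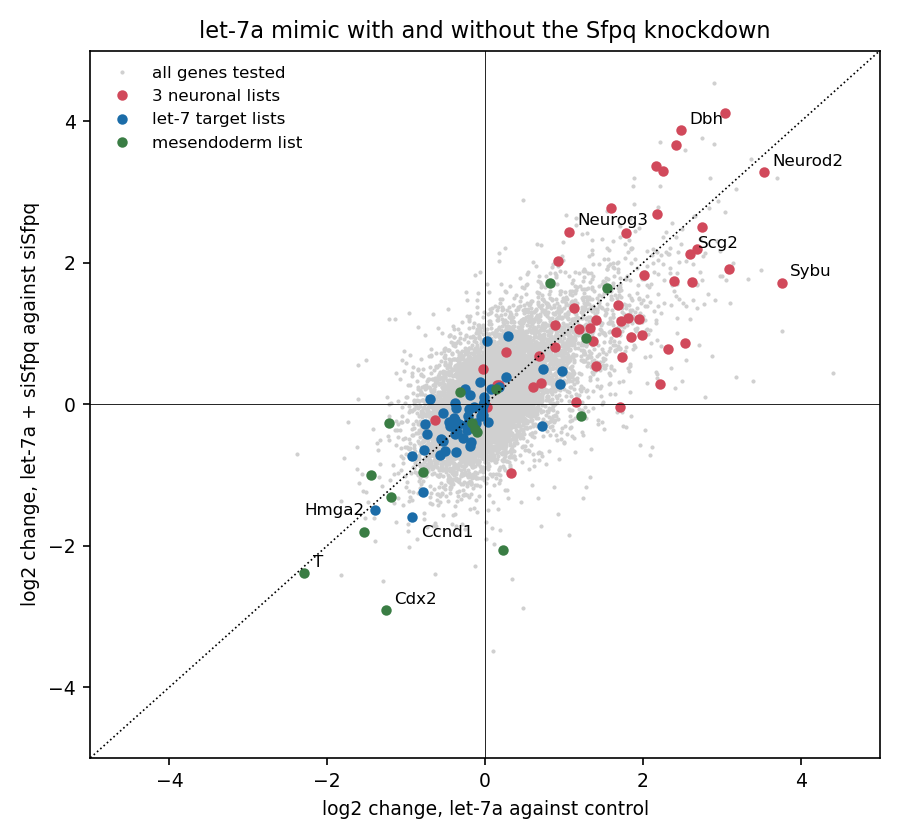
Log2 difference of each of 19578 genes for let-7a against control (x axis) and for let-7a + siSfpq against siSfpq (y axis), with members of the neuronal, let-7 target and mesendoderm lists in colour and the line of equal differences dotted. The cloud runs upward (r = 0.659), with Dbh and Neurog3 above the line and Sybu below it.

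The sizes were compared gene by gene through the interaction, the let-7a effect with the knockdown minus that without it. Limma called 0 genes for it (1182 at an unadjusted p below 0.05, lowest adjusted p = 0.195), 4 with the replicate block and 4070 without replicate 3. Dbh rose by 3.88 with the knockdown and 2.48 without, Neurog3 by 2.44 and by 1.06, which was not called, and Scg2 by 2.12 and 2.59. The starting levels differed: the mean of Dbh was 8.43 in siSfpq cells and 11.36 in control cells, and 12.31 and 13.84 with let-7a. Its rise thus started from a lower level in the knockdown.

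Among the let-7 targets, Hmga2 fell by 1.502 with the knockdown and 1.395 without, and Lin28a by 0.65 and 0.77. Igf2bp1 fell by 0.59 with the knockdown and differed by -0.19 without it (adjusted p = 0.555), and Hic2 fell by 0.67 and differed by -0.37 (adjusted p = 0.157). Over the 4 target lists the medians were -0.24 and -0.23. The 51 neuronal genes gave 27 calls in both contrasts, 2 with the knockdown only and 9 without it only, and no interaction among them passed the test (lowest adjusted p = 0.463, from -2.04 to 1.40). For the mitotic genes the median without the knockdown was -0.43 and 0 of 16 were called. Dusp4 fell by 2.41 with the knockdown and differed by -0.64 without it (adjusted p = 0.625), and St3gal6, a sialyltransferase, by -1.90 (adjusted p = 0.0232) and 0.01 (adjusted p = 0.994).

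Replicate 3, where the Sfpq level differed least between the conditions, was set beside the other samples for whole gene lists, over all measured members whether called or not. The median difference of the neuronal structure and vesicle genes was 0.97 in arrays 1 and 2, 1.08 in replicate 3 and 0.97 in replicate 4. That of the proneural factors was 2.15, 1.12 and 2.06 in the same order, and that of the noradrenergic genes 1.03, 0.50 and 1.39. All 3 neuronal lists were thus above 0 in each sample.

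For the mesendoderm genes the median was -0.20, -0.93 and -0.24, for the mitotic genes -0.84, -0.23 and -0.75, and for the oncofetal let-7 targets -0.57, -0.36 and -0.50. The lists lay below 0 in each sample, the mesendoderm genes farthest in replicate 3 and the mitotic genes nearest to 0 there. Within the noradrenergic list Dbh differed by 4.68 in arrays 1 and 2, 2.18 in replicate 3 and 4.78 in replicate 4. The Sfpq difference was 0.0303 in replicate 3 against 0.756 and 0.788 elsewhere, and its part in these values was not tested, nor were the lists tested against each other.

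**Figure D5:**
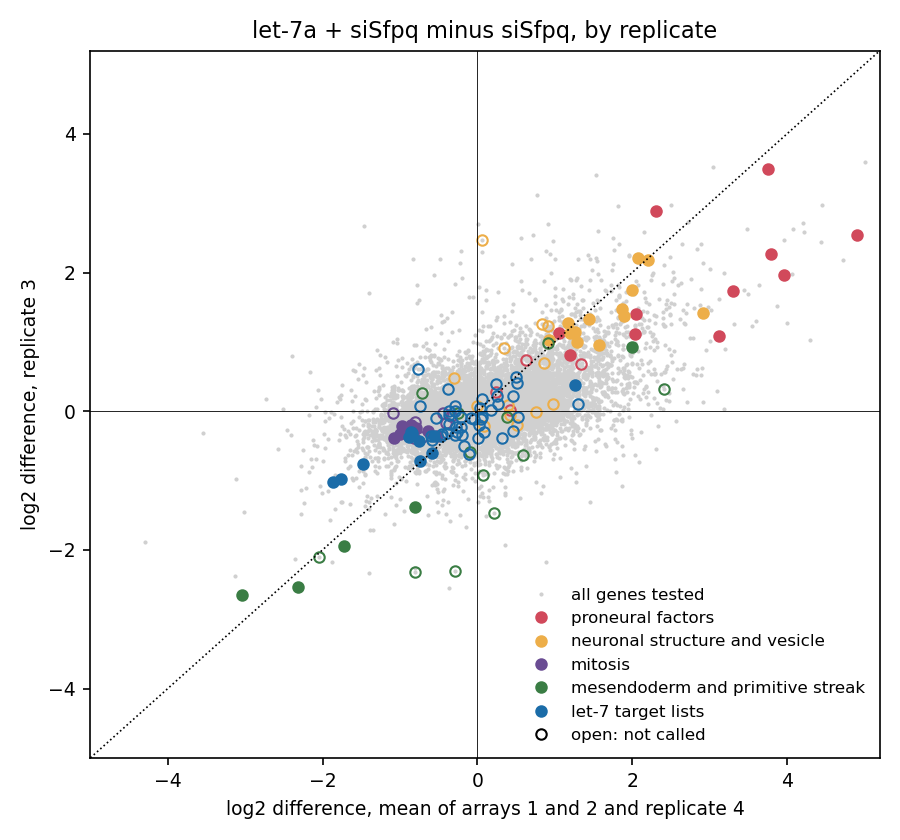
Log2 difference, let-7a + siSfpq minus siSfpq, in replicate 3 (y axis) against the mean of arrays 1 and 2 and of replicate 4 (x axis) for 19578 genes, with members of 5 gene groups in colour (filled, called; open, not called) and the line of equal differences dotted. Most mitotic genes lie nearer to 0 in replicate 3 (median -0.23) than elsewhere. The called neuronal structure genes lie on both sides of the line, with a replicate 3 difference of 48.8% to 111% of that elsewhere (median 90.4%).

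Promoters were searched for the E-box letters that proneural factors are known to bind, because these factors and neuronal genes moved together. CAGCTG, the same on both strands, stood in 18.2% of the RefSeq promoters (GRCm38.p6, 300 bases around the start, most of them upstream) of the 12468 genes that matched, in 25.6% of 771 called higher and in 12.4% of 526 called lower. CAGATG, searched on both strands, stood in 14.7%, 16.1% and 12.9%. Of the 21 promoters matched among the called neuronal genes, 42.9% held CAGCTG and 23.8% CAGATG. Of the 9 promoters matched among the 12 largest rises, 2 held CAGATG, those of Srrm4 and Cartpt. Their windows show the match in capitals in the direction of transcription.
Srrm4, chr5:116591958-116591987, minus strand: gcttttgttatgCAGATGgcggcgggaggc
Cartpt, chr13:99900827-99900856, minus strand: tgcgctctagccCATCTGtgcgcagagcct
In Cartpt the letters are CATCTG, the reverse complement of CAGATG. A match is a description of the letters and says nothing of binding.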

How the data were processed

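Total RNA of P19 cells was read on 16 1-colour Agilent arrays, 4 per condition (control, let-7a, siSfpq, let-7a + siSfpq), and groups were taken from the sample titles. The authors deposited 1 scanner table per array, whose processed signal is a background-subtracted intensity per spot (per the file headers Feature Extraction 10.7.3.1, array design on mm9). They also deposited a table of log2 values made with limma per the submitters' notes, which was used as an alternative.

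From the intensity, log2 values were quantile normalized over the 16 arrays, outlier spots were left out, and spots of a probe were averaged. Of 55681 probes, 25871 were kept, which had to be well above background throughout 1 condition or more (all 4 arrays) and not be named by a genomic region alone (16194 were). Probes of a gene were averaged, giving 19578 genes; 28354 probes were named through a RefSeq accession. Arrays 1 and 2 were averaged, leaving 3 samples per condition. All 4 conditions entered 1 fit in limma 3.58.1 (R 4.3.3; lmFit, eBayes with intensity trend), with Benjamini-Hochberg adjustment over all genes and calls at 0.05. The test was checked on simulated data. "At least N-fold" sets the bright mean against the lowest signal read well above background on each dim array, or the probe's own value if higher.

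Replicates 1 and 2 lay on 1 slide and 3 and 4 on another, each with all conditions. The deviations of same-numbered samples from their group means correlated at 0.649, 0.601 and 0.471, so the numbers were taken to pair the samples and the block is given beside counts over all genes, beside the list counts that it changed most and beside genes named as not called that it called.

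Named were Sfpq, the 12 canonical site and 2 control genes of the study, the 12 largest rises and falls, and called members of the gene lists with the 3 largest other differences. A few of these genes are not reported here. The comparison and the 25 lists (305 of 336 genes measured) were chosen with earlier results of these data known. Th, Nefl, Stmn2, the genes with seed-matched probes or large lower bounds, the interaction genes under the block and the windows printed were chosen after their values were seen.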

Additional observations from a re-analysis of the deposited data

Results flagged for a closer look

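The let-7a effect with the Sfpq knockdown differed from that without it in 4 genes when replicate number was a block (limma, adjusted p = 0.0191 to 0.0234), and in 0 genes without the block. For Ptchd1, a membrane protein with a patched domain, the interaction was -2.811 on the log2 scale, from a difference of -0.7177 with the knockdown and 2.093 without it. In Rnf182, a ubiquitin ligase, it was -2.44, from -1.165 and 1.274. In Ecel1, a neuronal endopeptidase, it was -1.704, from -0.2746 and 1.43, and in Pdlim3, an actin-associated protein, it was -1.38, from 0.313 and 1.693. In all 4 the let-7a difference was positive without the knockdown, and with the knockdown it was negative in Ptchd1, Rnf182 and Ecel1 and smaller in Pdlim3.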

How the results depend on the processing

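Of 181 named genes, 97 were called, and all 97 kept their direction in every setting tried. The replicate block kept all 97 and added 48, and leaving out replicate 3 kept 97 and added 62, whereas leaving out arrays 1 and 2 or replicate 4 kept 0 (2 and 22 with the block). The authors' values kept 91, 75th percentile scaling 89, no filter on dim probes 50, and a fit on the 2 conditions alone 37. Genes higher (1089) numbered 553 without the filter, 182 with the 2 conditions alone, 3195 with arrays 1 and 2 as separate samples, 3346 with the replicate block, 538 at a log2 change of at least 1, and 0 to 6014 when samples were left out, with or without the block. Genes lower (722) numbered 300, 18, 2899, 3013, 101 and 0 to 6166 in the same order, and 1098 under 75th percentile scaling, where 50.3% of calls were higher against 60.1%. Let-7 targets lower (10) numbered 4, 1, 21, 20, 3 and 0 to 29. Let-7a against control (1246) gave 3654 with separate arrays, 4091 with the block, 558 at a change of at least 1 and 2 to 9278 with samples left out. The interaction (0) gave 4 without the filter, 157 with separate arrays, 4 with the replicate block and 0 to 7625 with samples left out. The Sfpq difference (0.525) was 0.582 with separate arrays, 0.525 with the replicate block and 0.393 to 0.772 with samples left out. Leaving out samples with the block was chosen after seeing the data, as were the probe seed and E-box descriptions.

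Signs turned in 5 genes, all not called and near 0: Dusp1 to -0.0045 under 75th percentile scaling, -0.00569 under normexp and -0.0134 with separate arrays; Skil to -0.0652 under 75th percentile scaling; Notch2 to 0.00511 under normexp and to 0.0995 with the brightest probe or with probes above background on all 8 arrays. With samples left out, Dusp1 ranged from -0.0226 to 0.0391, Notch2 from -0.155 to 0.0229, Nefl from -0.297 to 0.108, Pou5f1 from -0.149 to 0.00363 and Skil from -0.028 to 0.113. The cause was not tested. Seed matches in 3′UTRs were not searched, since no transcript sequence was used here, and that alternative was not run.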

Other observations

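Among genes called higher, 95 were not well above background on any siSfpq array, so that only a lower bound of their rise is known, from 2.01- to 22.7-fold. Where the gene's own dim signal was above the lowest signal read well above background, the bound equals the measured fold. The largest was that of St18, a zinc finger factor related to Myt1, at least 22.7-fold, and others with large bounds were Plekhs1 at 13.0-fold, Neurod4 and the chemokine Ccl8 each at 12.1-fold, the extracellular matrix protein Spon1 at 11-fold and Gfra1, the co-receptor of Ret for GDNF, at 9.22-fold. In the other direction 4 genes were called lower and not well above background on any let-7a + siSfpq array, with falls of at least 2.58- to 11.2-fold. These genes were named after their values were seen.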
